A study of Lotus japonicus with 18 samples.

Results

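The salt response of shoots was followed in the second of 2 myb36 lines of Lotus japonicus, labelled Lmyb36-2 and called line 2 here. Lotus japonicus is a small legume used as a model for root nodulation and legume metabolism. The study grew wild-type plants (WT) and mutants described as knockouts of the gene for the transcription factor MYB36, lines Lmyb36-1 (line 1) and Lmyb36-2, with or without NaCl. Salted plants of each genotype were watered with Hornum nutrient solution whose NaCl was raised in steps of 50 mM, 4 days apart, to 100 mM, and spent about 2 days at the final concentration. Controls had the same solution without NaCl. All shoots were taken 4 hours after lights came on, from plants grown for 34 days. The comparison sets 3 libraries of salted against 3 of unsalted line 2 shoots, 6 of the 18 RNA-seq libraries, chosen by genotype and treatment alone. The spread behind its p-values was estimated from all 18. Every gene that passed the expression filter over the 18 libraries was described, which left 20433 of 33994 table entries. The labels call the replicates biological but do not say whether they came from separate pots or days, so p-values measure the spread between these libraries. Each mutant line is a single genotype, and the sources used here give neither the lesion nor the position of the mutated gene.

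In Arabidopsis, MYB36 switches on genes that build the Casparian strip, a lignified band in the wall of the root endodermis that blocks the passage of water and ions between cells. Roots with a defective strip have altered ion and nutrient supply to the shoot. NaCl stress combines osmotic stress with the accumulation of sodium and chloride, and leaves respond through abscisic acid, compatible solutes such as proline, ion and water channels, antioxidant enzymes and changes in growth. Iron, phosphate and nitrate status are each read out in leaves by well-described gene sets, among them ferritins for iron, SPX proteins and acid phosphatases for phosphate and nitrate reductase for nitrogen.

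Values are FPKM, fragments scaled by transcript length and by the mapped fragments of the library, as deposited, and protein names are those the authors' annotation took from the closest Swiss-Prot entry. Reads recovered from the values numbered 53320674 to 90456482 per line 2 library. Photosystem and light-harvesting genes made up 11.1 to 12.2% of the FPKM sum of the 6 libraries, whereas none of 4 leghemoglobin genes, markers of nodules, exceeded 0.202 FPKM. Of 5 entries described as MYB36, 3 passed the filter, none was called for salt in line 2, and their group means there were between 0.303 and 4.02 FPKM. The 18 libraries fell into 9 and 9 by the sign of the first component of the deviations from group means, which held 30.8% of that variance. Control 3 and salt 2 of line 2 lay in the upper set and the other 4 line 2 libraries in the lower set. The last 8 columns of the deposited table were all in the upper set, so this split runs with the order of the table. Fewer cells of a type and less RNA per cell cannot be told apart in whole shoots.

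Salt changed 1770 genes in line 2, 8.66% of those tested, at a Benjamini-Hochberg adjusted p under 0.05 in limma on log2(FPKM + 0.5). Of these, 866 rose (4.24%) and 904 fell (4.42%). Most changes were modest, with a median size of 0.59 on the log2 scale, and the larger ones were mainly falls: 48 genes rose and 208 fell by 2-fold or more on that scale. Genes that rose were abundant, with a median of 28.8 FPKM in the higher group, against 6.83 FPKM for those that fell and 6.91 FPKM for all genes tested. The 3 salt libraries did not overlap the 3 control libraries for 1761 of the 1770 genes, beside 17.2% (salt above) and 15.3% (salt below) of all tested genes. The share of rises among the calls was 48.9% as deposited, but 20.9% after scaling to the gene total, which moved the median of all genes from 0.01 to -0.07, 21.4% by voom on the recovered reads and 63.3% over genes with a mean of at least 5 FPKM. With only the 6 line 2 libraries in the fit, 1597 genes were called, 1198 of them among the 1770. Without control 1, 2 or 3 the count of calls was 833, 821 or 696, and without salt 3 it was 1065. Over the lower set alone, with 2 libraries of line 2 a group and 3 residual degrees of freedom in the fit, it was 291, of which 244 were among the 1770.

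**Figure D1:**
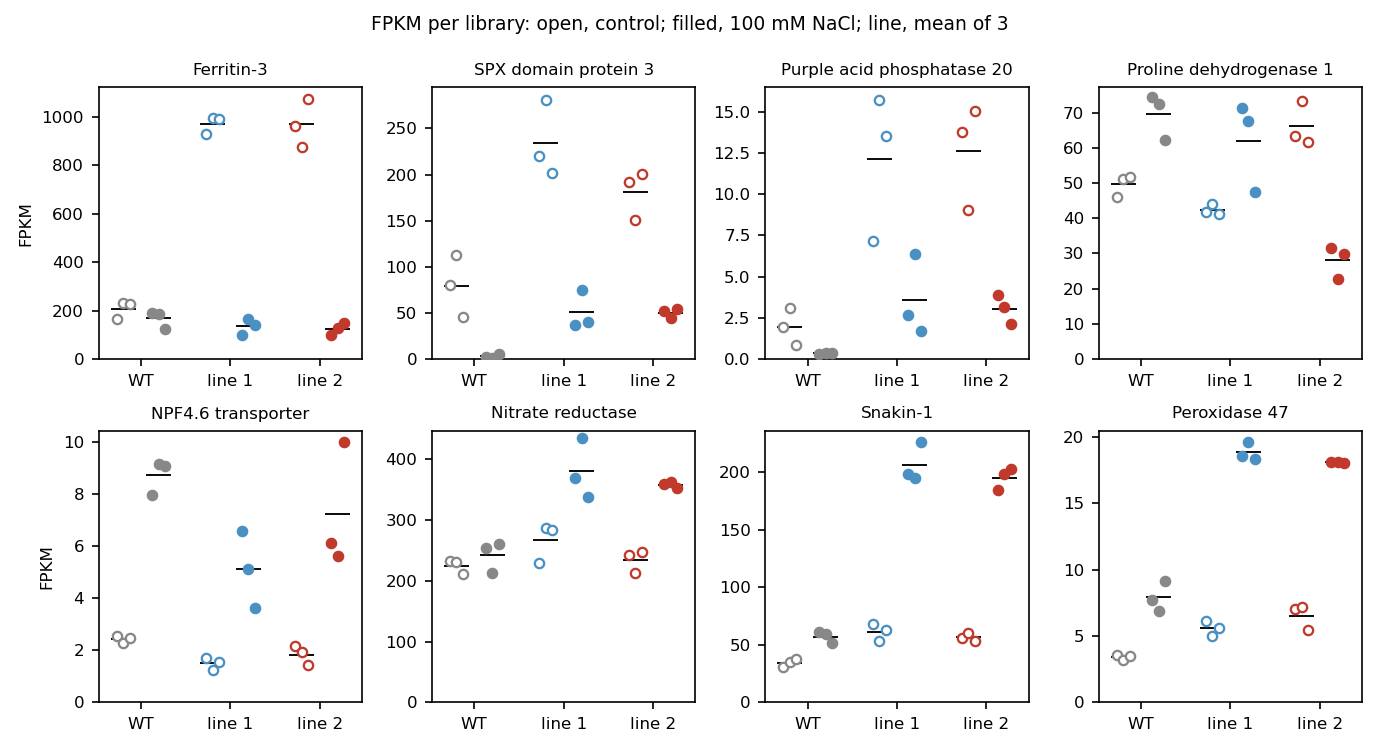
FPKM (y axes, linear, from 0) of 8 genes in each of the 18 libraries of WT, line 1 and line 2. Open points are control and filled points salt libraries, and lines are means of 3 libraries. In line 2, Ferritin-3 falls from a mean of 971 to 125 FPKM, and Peroxidase 47 stands at 18.1 FPKM in all 3 salt libraries.

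The largest change was in iron storage. Ferritin-3 (LotjaGi3g1v0197600, chromosome 3, 28953939 to 28957552), a plastid protein shell that stores iron, stood at 963, 876 and 1073 FPKM in control libraries 1 to 3 and 100.5, 126 and 150.1 FPKM in salt libraries 1 to 3. Every salt library was below every control library, and the fall was close to 8-fold (limma log2 change -2.96, SE 0.20, adjusted p = 6.96e-07). A fall of nearly the same size occurred in line 1 (limma log2 change -2.88, SE 0.20, adjusted p = 2.54e-07), whereas the WT value did not pass the test (limma log2 change -0.32, SE 0.20, adjusted p = 0.34). The salt effect in line 2 differed from that in WT (log2 difference -2.64, SE 0.28, limma adjusted p = 1.43e-05), but was not distinguishable from that in line 1 (log2 difference -0.08, SE 0.28, limma adjusted p = 0.98). Ferritin-3 averaged 208 ± 37.9 FPKM in WT controls and 167 ± 36.4 FPKM in WT with salt (SD, n = 3), so that unsalted line 2, at 971 ± 98.4 FPKM, stood above WT and salted line 2, at 125 ± 24.8 FPKM, below it; these levels between genotypes were not tested.

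A second plastid ferritin, Ferritin-2 (LotjaGi1g1v0074300, chromosome 1, 10735477 to 10739089), moved less. Its values were 63.4, 63.5 and 69.2 FPKM in control libraries 1 to 3 and 37.9, 46.6 and 43.9 FPKM in salt libraries 1 to 3, a fall that passed the test (limma log2 change -0.61, SE 0.09, adjusted p = 0.0013) and held in all 21 alternatives. Vacuolar iron transporter homolog 4 (LotjaGi6g1v0356300, chromosome 6, 66781543 to 66782898), related to proteins that carry iron into the vacuole, stood at 5.05, 4.51 and 7.62 FPKM in control libraries 1 to 3 and 0.587, 2.05 and 0.895 FPKM in salt libraries 1 to 3. Here too no salt value reached a control value (limma log2 change -1.96, SE 0.42, adjusted p = 0.0092). That call was lost without control 3, with 0.1 as the pseudocount and over the lower set alone, with limma adjusted p-values up to 0.095. Of 24 iron storage and uptake genes tested, 2 rose and 3 fell in line 2 (1 and 2 over the lower set). The share called was 20.8%, beside 8.66% of all genes tested. The list's median log2 change was -0.17, beside 0.01 for all genes. The 2 that rose were chosen after their values were seen. One is Ferric reduction oxidase 7 (LotjaGi6g1v0277600), a chloroplast ferric reductase in Arabidopsis, at 110.1, 97.3 and 89.6 FPKM without and 149.8, 135 and 139 FPKM with salt (limma log2 change 0.51, SE 0.11, adjusted p = 0.0076). The other is Ferric reduction oxidase 2 (LotjaGi3g1v0385800), the root-surface enzyme in Arabidopsis, whose call was lost after each left-out library except salt 2 (limma log2 change 0.59, SE 0.15, adjusted p = 0.023; up to 0.12). The summed level of the iron list was 1418 to 1625 FPKM in line 2 controls and 656 to 712 FPKM with salt, 1508 to 1577 and 636 to 677 FPKM in line 1, and 695 to 771 and 752 to 759 FPKM in WT. Without Ferritin-3 the sums in line 2 were 542 to 555 FPKM in controls and 555 to 567 FPKM with salt, so the fall of the summed level lay in Ferritin-3.

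Falls outnumbered rises among phosphate genes. Of 42 tested, 10 fell and 3 rose in line 2, with a median log2 change of -0.35. The share called was 31%, beside 8.66% of all genes tested (4.42% falls and 4.24% rises). SPX domain-containing protein 3 (LotjaGi3g1v0206000, chromosome 3, 30216910 to 30221706), one of the SPX proteins that sense phosphate status and rise in Arabidopsis when phosphate is short, had 191, 150.4 and 201 FPKM in control libraries 1 to 3 and 51.7, 44.02 and 54.1 FPKM in salt libraries 1 to 3. The groups were well apart (limma log2 change -1.84, SE 0.38, adjusted p = 0.0081), and the call was lost only over the lower set, at an adjusted p of 0.15. Probable purple acid phosphatase 20 (LotjaGi1g1v0676800, chromosome 1, 124360595 to 124364030), of a family that frees phosphate from organic compounds, went from 13.8, 9.03 and 15.04 to 3.86, 3.16 and 2.15 FPKM (limma log2 change -1.88, SE 0.40, adjusted p = 0.0087). Its neighbour on the chromosome, Purple acid phosphatase 22 (LotjaGi1g1v0676900, chosen after its values were seen), fell too (limma log2 change -1.32, SE 0.30, adjusted p = 0.014), as did SPX domain-containing protein 1 (LotjaGi4g1v0270900, also chosen after its values were seen; limma log2 change -0.98, SE 0.22, adjusted p = 0.014), whose call was lost without control 3 or without salt 2, at up to 0.061.

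Genes of phosphate transport and recycling were among those that fell. Mitochondrial phosphate carrier protein 3 (LotjaGi2g1v0103900, chromosome 2, 34874620 to 34878487), which imports phosphate into mitochondria, stood at 29.3, 22.3 and 26.1 FPKM in control libraries 1 to 3 and 9.02, 7.58 and 5.92 FPKM in salt libraries 1 to 3 (limma log2 change -1.73, SE 0.27, adjusted p = 0.0015). Inorganic pyrophosphatase 2 (LotjaGi3g1v0426700, chromosome 3, 83692142 to 83693870), which releases phosphate from pyrophosphate, stood at 36.4, 29.2 and 34.5 FPKM in control libraries 1 to 3 and 10.4, 9.13 and 9.601 FPKM in salt libraries 1 to 3 (limma log2 change -1.72, SE 0.37, adjusted p = 0.01). Neither gene had a salt value near its control values, and both calls held in all 21 alternatives. The xylem-loading transporter PHO1 (LotjaGi6g1v0003600, chosen after its values were seen) fell from a mean of 1.88 ± 0.395 to 0.659 ± 0.352 FPKM (SD, n = 3; limma log2 change -1.07, SE 0.21, adjusted p = 0.0058) and lost its call only over the lower set. Going the other way, the chloroplast phosphate transporter 2-1 (LotjaGi4g1v0158500, chromosome 4, 27882799 to 27886603) rose from 59.8, 60.3 and 58.4 to 93.1, 99.1 and 90.1 FPKM (limma log2 change 0.66, SE 0.10, adjusted p = 0.0013). The list's count was 3 up and 17 down with the split of table columns as a term, 1 up and 18 down by voom and 1 up and 3 down over the lower set. The WT count was 4 up and 18 down, beside 6.35% and 9.91% of all genes tested there, and that of line 1 was 3 up and 17 down, beside 4.19% and 4.42%. For SPX domain-containing protein 3 the WT fall was larger, -4.63, and the effects differed (log2 difference 2.79, SE 0.54, limma adjusted p = 0.0032).

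Rises outnumbered falls among nitrogen and sulfur genes as deposited. Of 70 genes of nitrate and ammonium transport and assimilation, 12 rose and 1 fell in line 2 (median log2 change 0.15). The share called was 18.6%, beside 8.66% of all genes tested (4.24% rises and 4.42% falls). Protein NRT1/PTR FAMILY 4.6 (LotjaGi4g1v0246400, chromosome 4, 59800766 to 59805658), which carries nitrate and abscisic acid in Arabidopsis, stood at 2.15, 1.92 and 1.45 FPKM in control libraries 1 to 3 and 6.101, 5.604 and 9.98 FPKM in salt libraries 1 to 3. All salt values exceeded all control values (limma log2 change 1.69, SE 0.20, adjusted p = 2.42e-04), and WT and line 1 rose by 1.65 and 1.46. Nitrate reductase (LotjaGi1g1v0152000, chromosome 1, 26164087 to 26169107), which reduces nitrate to nitrite, went from 242, 213 and 247 to 358, 362 and 353 FPKM (limma log2 change 0.61, SE 0.11, adjusted p = 0.0039), while its WT change was 0.11 (limma adjusted p = 0.63). The difference between those 2 effects did not pass the test (log2 difference 0.51, SE 0.16, limma adjusted p = 0.062).

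Uroporphyrinogen III methyltransferase (LotjaGi3g1v0125200, chromosome 3, 15306363 to 15311024) makes the precursor of siroheme, the cofactor of nitrite and sulfite reductases. It stood at 30.1, 33.7 and 29.2 FPKM in control libraries 1 to 3 and 70.5, 69.96 and 79.3 FPKM in salt libraries 1 to 3. The control and salt ranges were far apart (limma log2 change 1.23, SE 0.12, adjusted p = 5.87e-05). Line 1 rose by 0.66, and WT did not rise (limma log2 change -0.15, SE 0.12, adjusted p = 0.51); the effect in line 2 exceeded that in WT (log2 difference 1.38, SE 0.18, limma adjusted p = 8.08e-05). Of 19 sulfate genes, 4 rose and none fell, beside 4.24% rises over all genes tested, and none was called over the lower set. They include 5'-adenylylsulfate reductase 1 (LotjaGi6g1v0294100), which reduces activated sulfate, with 52.3 ± 5.21 FPKM without and 82.7 ± 2.11 FPKM with salt (SD, n = 3; limma log2 change 0.66, SE 0.17, adjusted p = 0.021); its call was lost on leaving out any library but control 2, at up to 0.086. The nitrogen list gave 7 up and 5 down by voom, 7 up and 3 down after scaling to the gene total, and 2 up and 0 down over the lower set.

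Among genes of compatible solutes, a gene of breakdown fell. Proline dehydrogenase 1 (LotjaGi1g1v0523800, chromosome 1, 104874199 to 104877937), the mitochondrial enzyme of the first step of proline breakdown, stood at 63.4, 73.4 and 61.8 FPKM in control libraries 1 to 3 and 31.6, 22.8 and 29.8 FPKM in salt libraries 1 to 3. No salt value reached the lowest control value (limma log2 change -1.23, SE 0.14, adjusted p = 1.68e-04). Line 1 and WT moved the other way, by 0.53 and 0.48, and both differences passed the test: log2 difference -1.76, SE 0.20, limma adjusted p = 0.0011 against line 1 and log2 difference -1.72, SE 0.20, limma adjusted p = 3.59e-05 against WT. Its levels were 41.9, 44.02 and 41.1 FPKM in line 1 controls and 71.3, 67.6 and 47.6 FPKM with salt, and 45.98, 51.2 and 51.8 and 74.6, 72.6 and 62.1 FPKM in WT.

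Inositol oxygenases degrade myo-inositol. Inositol oxygenase 1 (LotjaGi3g1v0372900) fell from 16.5, 21.3 and 15.3 to 9.61, 8.69 and 8.32 FPKM (limma log2 change -0.95, SE 0.17, adjusted p = 0.0028; WT 0.04, line 1 -0.04), with the call lost over the lower set at 0.057. Inositol oxygenase 2 (LotjaGi2g1v0228200) fell from a mean of 3.77 ± 0.966 to 1.48 ± 0.0548 FPKM (SD, n = 3; limma log2 change -1.08, SE 0.25, adjusted p = 0.014), a call lost without control 1 or without control 2, at up to 0.067; both were chosen after their values were seen. The 2 called inositol-3-phosphate synthases, which make inositol phosphate from glucose 6-phosphate, rose. One (LotjaGi6g1v0085700, chromosome 6, 17028853 to 17032688) went from 76.4, 74.5 and 70.99 to 127, 119 and 123 FPKM (limma log2 change 0.73, SE 0.08, adjusted p = 1.44e-04), by much the same amount as in line 1 (0.72) and WT (0.70). The other (LotjaGi4g1v0399900, chosen after its values were seen) went from 427, 433 and 388 to 577, 505 and 566 FPKM (limma log2 change 0.40, SE 0.11, adjusted p = 0.036) and fell in line 1 by 0.41; its line 2 call was lost on leaving out any library but salt 2, at up to 0.15. Over all 40 osmolyte genes, 2 rose and 3 fell (median -0.16), 12.5% called beside 8.66% of all genes tested.

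Among ion transporters the share of calls was close to that of all genes. Of 57 genes of sodium, potassium and chloride transport, 3 rose and 2 fell, 8.77% beside 8.66% of all genes tested; the count was 9 up and 5 down with the split of table columns as a term, and none was called over the lower set. Sodium transporter HKT1 (LotjaGi2g1v0234400, chromosome 2, 69359304 to 69363538), which takes sodium out of the xylem in Arabidopsis, stood at 3.799, 3.13 and 3.305 FPKM in control libraries 1 to 3 and 7.18, 5.402 and 6.32 FPKM in salt libraries 1 to 3. The salt values were all higher (limma log2 change 0.79, SE 0.15, adjusted p = 0.0037). The chloroplast potassium efflux antiporter 2 (LotjaGi3g1v0380300) fell from 24.6 ± 1.76 to 17.02 ± 0.954 FPKM (SD, n = 3; limma log2 change -0.52, SE 0.09, adjusted p = 0.0031). Among 29 aquaporins, the membrane channels for water, 4 rose and 1 fell (17.2%), and 2 rose over the lower set. Aquaporin TIP2-1 of the vacuolar membrane (LotjaGi3g1v0368200, chromosome 3, 75457718 to 75459512) went from 184, 189.8 and 159 to 284, 298 and 315 FPKM (limma log2 change 0.75, SE 0.09, adjusted p = 1.59e-04), and Aquaporin NIP2-1 (LotjaGi1g1v0503000) from 4.66, 4.69 and 3.69 to 8.31, 8.42 and 10.9 FPKM (limma log2 change 1.00, SE 0.16, adjusted p = 0.0019). TIP2-1 rose by a like amount in WT (0.77), whereas the NIP2-1 rise in WT was larger, 1.86 (log2 difference -0.86, SE 0.23, limma adjusted p = 0.027).

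Abscisic acid and LEA genes, commonly used as markers of osmotic stress, gave 2 called falls each and no called rise. Of 28 abscisic acid genes tested, none rose and 2 fell by limma, and none and 4 by voom. Of 9 LEA proteins and dehydrins, protectants of drying cells, none rose and 2 fell, and none and 3 by voom. The shares called were 7.14% and 22.2%, all falls, beside 4.42% falls over all genes tested. With rises in 4.24% of all genes tested, lists of this size would hold few rises. Abscisic stress-ripening protein 1 (LotjaGi5g1v0290400, chromosome 5, 60694310 to 60695940) had 479, 443 and 549.9 FPKM in control libraries 1 to 3 and 191, 245 and 213 FPKM in salt libraries 1 to 3. All salt libraries were lower (limma log2 change -1.18, SE 0.26, adjusted p = 0.012), and the call was lost only without control 3, at 0.057. The 2 called LEA-type genes, Lea14 (LotjaGi1g1v0481800) and PCC13-62 (LotjaGi6g1v0261400), fell by 0.33 and 1.095 on the log2 scale, with limma adjusted p-values of 0.032 and 0.037. Leaving out control 1 or control 3 ended both calls, and other libraries 1 of them, at up to 0.27 and 0.15, and neither was called over the lower set.

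Among calcium signalling genes, WRKY, NAC and bZIP factors and heat shock genes most of the called changes were falls. The shares called were 7.61%, 9.09% and 8%, near the 8.66% of all genes tested (4.24% rises and 4.42% falls). None of 92 calcium signalling genes rose and 7 fell; the count was 2 and 10 with the split of table columns as a term and 0 and 3 over the lower set. A Calmodulin gene (LotjaGi6g1v0001700, chromosome 6, 508775 to 511942), a calcium sensor, stood at 31.03, 30.9 and 26.9 FPKM in control libraries 1 to 3 and 14.8, 12.4 and 12.2 FPKM in salt libraries 1 to 3 (limma log2 change -1.15, SE 0.21, adjusted p = 0.0041). Of 110 WRKY, NAC and bZIP transcription factors, 2 rose and 8 fell in line 2. The WT count was 3 up and 40 down, beside 6.35% and 9.91% of all genes tested there. Probable WRKY transcription factor 40 (LotjaGi1g1v0378000, chromosome 1, 85760074 to 85762834), a regulator of defence and abscisic acid responses in Arabidopsis, stood at 16.1, 13.5 and 16.2 FPKM in control libraries 1 to 3 and 6.31, 5.404 and 4.19 FPKM in salt libraries 1 to 3 (limma log2 change -1.45, SE 0.27, adjusted p = 0.0043). For both genes the lowest control value was above the highest salt value, and both calls held in all 21 alternatives. The effect in line 2 was above that in WT for 29 of the 110 factors and below it for none, beside 5.87% and 2.74% of all genes tested. Of 75 heat shock genes, 1 rose and 5 fell. Heat shock factor protein HSF30 (LotjaGi1g1v0367550, chromosome 1, 84550386 to 84555331) went from 6.83, 7.25 and 5.69 to 2.71, 2.76 and 2.91 FPKM (limma log2 change -1.0995, SE 0.12, adjusted p = 1.44e-04), and fell by 1.22 in WT and 1.60 in line 1.

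**Figure D2:**
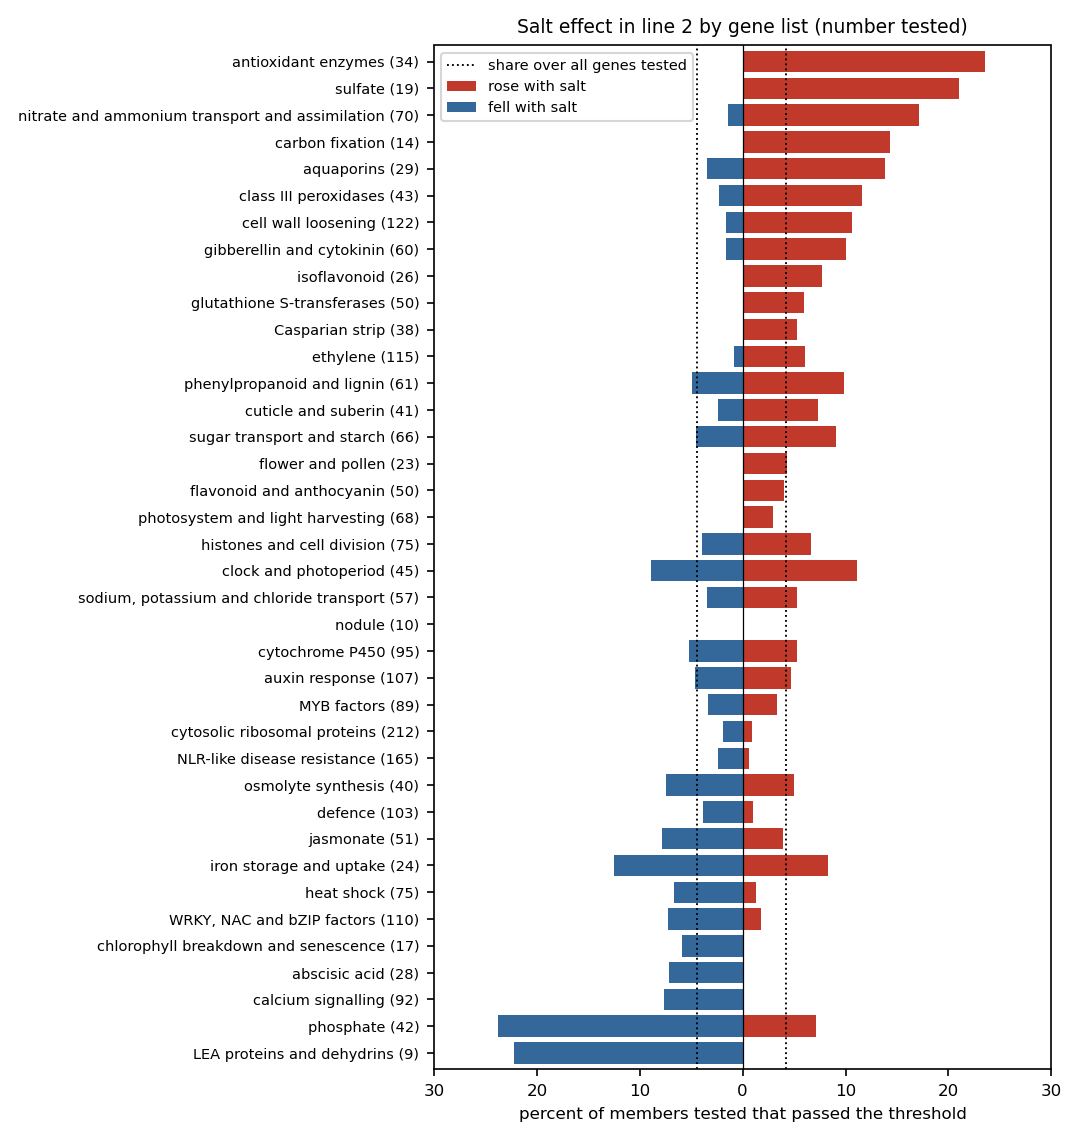
Share of tested members of each gene list that passed the threshold in line 2, rises to the right of 0 and falls to the left, in percent. Phosphate genes have 10 falls among 42, nitrate and ammonium genes 12 rises among 70 and antioxidant enzymes 8 rises among 34, beside 4.24% rises and 4.42% falls over all genes tested.

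Among antioxidant enzymes the called changes were small rises. Of 34 genes tested, 8 rose and none fell, beside 4.24% rises over all genes; the count was 5 after scaling to the gene total, 6 by voom, 12 with the split of table columns as a term and 0 over the lower set. The median change of the list was 0.10 on the log2 scale. Peroxiredoxin Q (LotjaGi4g1v0321000, chosen after its values were seen), a chloroplast enzyme that reduces peroxides, went from 416, 429.5 and 397 to 540.1, 622 and 671 FPKM (limma log2 change 0.56, SE 0.10, adjusted p = 0.0039). Catalase-4 (LotjaGi1g1v0436200, chromosome 1, 93051830 to 93063828), which breaks down hydrogen peroxide, went from 174, 159 and 164 to 217, 230.3 and 225 FPKM (limma log2 change 0.44, SE 0.08, adjusted p = 0.0025), and 2-Cys peroxiredoxin BAS1-like (LotjaGi5g1v0102700, chromosome 5, 18611968 to 18614854) from 131, 129 and 128 to 159.8, 172 and 193 FPKM (limma log2 change 0.43, SE 0.08, adjusted p = 0.0038). In each case salt and control values did not overlap, and each call was lost over the lower set, with limma adjusted p-values of 0.081, 0.057 and 0.094. In WT 1 of the 34 rose and 2 fell, beside 6.35% and 9.91% of all genes tested there.

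RuBisCO activase (LotjaGi1g1v0088000, chromosome 1, 12770360 to 12775326), which frees the carbon-fixing enzyme of inhibitory sugar phosphates, was among the most abundant genes that changed. It stood at 654, 626 and 602 FPKM in control libraries 1 to 3 and 1055, 1130.2 and 1080.4 FPKM in salt libraries 1 to 3. The lowest salt value was well above the highest control value (limma log2 change 0.80, SE 0.10, adjusted p = 3.16e-04), with rises of 0.87 in line 1 and 0.75 in WT. Photosystem II reaction center PSB28 protein (LotjaGi5g1v0152700, chromosome 5, 39883193 to 39885542), an assembly factor of photosystem II, stood at 114, 113 and 102 FPKM in control libraries 1 to 3 and 204, 198 and 243 FPKM in salt libraries 1 to 3 (limma log2 change 0.97, SE 0.20, adjusted p = 0.0078). Beside these, 1 other of 68 photosystem genes and 1 other of 14 carbon fixation genes passed the test, both as rises. The shares called were 2.94% and 14.3%, in that order, beside 8.66% of all genes tested. Genes of the chloroplast genome had a median change of 0.27 over 102 tested entries, of which 3 rose and 1 fell. Their summed level was 4578, 4409 and 5246 FPKM in controls 1 to 3 and 5037, 6792 and 5512 FPKM in salt libraries 1 to 3, so the groups overlapped and salt 2 was highest. Of the called rises, TIC 214 (LotjaGiC1v0011300) read 5.47, 14.1 and 4.51 FPKM and ribosomal protein L36 (LotjaGiC1v0007700) 9.48, 28.9 and 5.54 FPKM in salt 1 to 3, both highest in salt 2.

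Cell wall and growth-related genes gave some of the clearest rises. Of 43 class III peroxidases, secreted enzymes that cross-link or loosen walls, 5 rose and 1 fell, and 5 and 0 over the lower set. The share called was 14%, beside 8.66% of all genes tested. Peroxidase 47 (LotjaGi2g1v0166000, chromosome 2, 57602699 to 57605613) stood at 7.06, 7.16 and 5.42 FPKM in control libraries 1 to 3 and 18.1, 18.1 and 18.1 FPKM in salt libraries 1 to 3, and its 3 salt libraries were nearly identical (limma log2 change 1.41, SE 0.12, adjusted p = 7.06e-06). Peroxidase 53 (LotjaGi5g1v0117300, chromosome 5, 23975897 to 23979725) went from 6.19, 6.28 and 6.82 to 13.2, 17.1 and 16.1 FPKM (limma log2 change 1.195, SE 0.13, adjusted p = 1.29e-04). Its WT change was 0.26, below that of line 2 (log2 difference 0.93, SE 0.19, limma adjusted p = 0.004), whereas Peroxidase 47 rose in WT by 1.1002. For both the groups were separate, and both calls held in all 21 alternatives.

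Of 122 cell wall loosening genes, 13 rose and 2 fell, 12.3% called beside 8.66% of all genes tested. The count was 10 up and 7 down by voom and 2 up and 0 down over the lower set. WT had 19 rises and 6 falls and line 1 had 21 and 6. Calls over all genes tested there were 16.3% and 8.61%. Xyloglucan endotransglucosylases cut and rejoin the hemicellulose xyloglucan. Xyloglucan endotransglucosylase/hydrolase 1 (LotjaGi1g1v0637000, chromosome 1, 119212151 to 119214723) stood at 74.1, 75.8 and 66.8 FPKM in control libraries 1 to 3 and 126, 167 and 162 FPKM in salt libraries 1 to 3 (limma log2 change 1.06, SE 0.13, adjusted p = 3.16e-04). A second member, protein 33 (LotjaGi4g1v0165100, chromosome 4, 31155782 to 31159660), went from 3.72, 4.22 and 3.64 to 10.5, 7.67 and 12.01 FPKM (limma log2 change 1.25, SE 0.22, adjusted p = 0.0025) and rose in line 1 by 2.29. Both had all salt values above all control values. Expansin-A15 (LotjaGi4g1v0250200, chosen after its values were seen), of a family that loosens walls, rose in line 2 (limma log2 change 1.00, SE 0.23, adjusted p = 0.014) with -0.29 in WT, but lost its call without control 1 or without control 3, at up to 0.14. Of 38 Casparian strip genes, 2 rose and none fell, 5.26% beside 4.24% rises and 4.42% falls over all genes tested. None was called after scaling to the gene total, and 1 rose by voom and over the lower set. The 2 were CASP-like protein 1F3 (LotjaGi1g1v0630200) and CASP-like protein 5A2 (LotjaGi2g1v0359100), related to the membrane proteins that mark the strip. Their limma adjusted p-values were 0.029 and 0.023. Without control 2, control 3, salt 1 or salt 3, neither call held (up to 0.098 and 0.14).

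Of 13 tested genes described as snakin or gibberellin-regulated proteins, small cysteine-rich peptides, 5 rose and none fell in line 2. Over all genes tested, 4.24% rose and 4.42% fell. This family was picked out after its values were seen, so its count is only a description. Snakin-1 (an assembled transcript on chromosome 5, 5266806 to 5268568), an antimicrobial peptide in potato, stood at 56.04, 59.95 and 53.7 FPKM in control libraries 1 to 3 and 184, 199 and 203 FPKM in salt libraries 1 to 3. The rise exceeded 3-fold and all salt values were far above the controls (limma log2 change 1.78, SE 0.11, adjusted p = 2.32e-07); it matched line 1 (1.74) and exceeded WT (0.73; log2 difference 1.05, SE 0.15, limma adjusted p = 2.28e-04). Gibberellin-regulated protein 1 (LotjaGi5g1v0005800, chromosome 5, 1471541 to 1473106) went from 139.9, 141 and 156 to 278, 274 and 284 FPKM (limma log2 change 0.93, SE 0.13, adjusted p = 5.69e-04), and fell in WT (limma log2 change -0.40, SE 0.13, adjusted p = 0.038). The difference between those effects passed the test (log2 difference 1.34, SE 0.18, limma adjusted p = 1.26e-04). Gibberellin-regulated protein 2 (LotjaGi5g1v0279800_LC) rose in all 3 genotypes, from 7.06 ± 0.9803 to 12.8 ± 2.33 FPKM in line 2 (SD, n = 3; limma log2 change 0.81, SE 0.14, adjusted p = 0.0025). Of 60 gibberellin and cytokinin genes, 6 rose and 1 fell, and 3 and 0 over the lower set. The share called was 11.7%, beside 8.66% of all genes tested. A second Snakin-1 gene (LotjaGi1g1v0359600_LC, chosen after its values were seen) did not pass the test in line 2 (limma log2 change 0.16, SE 0.18, adjusted p = 0.62).

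The ethylene and auxin lists had calls in both directions, with shares called near the 8.66% of all genes tested. Of 115 ethylene genes, 7 rose and 1 fell as deposited (6.96%), but 4 and 4 by voom. Ethylene-responsive transcription factor RAP2-3 (LotjaGi4g1v0338100_LC) went from 28.8, 32.2 and 27.2 to 52.5, 45.8 and 45.2 FPKM (limma log2 change 0.69, SE 0.09, adjusted p = 2.70e-04), and the call held in all 21 alternatives. Of 107 auxin genes, 5 rose and 5 fell (9.35%), and 3 and 10 by voom. Auxin efflux carrier component 3 (LotjaGi2g1v0062600), which moves auxin out of cells, rose from 10.8 ± 1.39 to 16.7 ± 0.7796 FPKM (limma log2 change 0.62, SE 0.11, adjusted p = 0.0029), and Auxin response factor 6 (LotjaGi1g1v0047400) fell from 7.77 ± 0.4199 to 4.81 ± 0.407 FPKM (SD, n = 3; limma log2 change -0.64, SE 0.13, adjusted p = 0.0067). Their control and salt values did not overlap. In WT 28 auxin genes rose and 4 fell, beside 6.35% and 9.91% of all genes tested there.

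The lignin and flavonoid lists gave 9 and 2 calls in line 2. Of 61 phenylpropanoid and lignin genes, 6 rose and 3 fell, 14.8% beside 8.66% of all genes tested; the count was 3 and 3 after scaling to the gene total and 0 over the lower set. Of 50 flavonoid and anthocyanin genes, 2 rose and none fell as deposited (4%), and 1 rose and 2 fell by voom. Caffeoyl-CoA O-methyltransferase (LotjaGi4g1v0076500, chromosome 4, 9796465 to 9799518), which methylates lignin precursors, went from 86.02, 88.4 and 86.7 to 129, 124 and 124 FPKM (limma log2 change 0.53, SE 0.10, adjusted p = 0.0034). Cinnamoyl-CoA reductase 1 (LotjaGi3g1v0004500), the entry to monolignols, went from 52.8, 50.003 and 49.7 to 73.98, 70.6 and 66.7 FPKM (limma log2 change 0.47, SE 0.09, adjusted p = 0.0046). The salt values of both lay above the controls. Of 26 isoflavonoid genes, 2 rose and none fell in line 2, 7.69% beside 8.66% of all genes tested, with a median log2 change of 0.21. In WT none rose and 16 fell, beside 6.35% and 9.91% of all genes tested there, with a median of -1.68. Isoflavonoids are the legume flavonoids used as phytoalexins and nodulation signals.

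2-hydroxyisoflavanone dehydratase (LotjaGi5g1v0316300, chromosome 5, 63416209 to 63417547), which completes the isoflavone skeleton, stood at 4.31, 3.97 and 4.42 FPKM in control libraries 1 to 3 and 6.64, 6.58 and 9.39 FPKM in salt libraries 1 to 3 (limma log2 change 0.75, SE 0.15, adjusted p = 0.0078). Isoflavone reductase (LotjaGi2g1v0388100), whose entry overlaps another in the table, went from 12.3, 15.6 and 12.9 to 26.2, 20.3 and 23.8 FPKM (limma log2 change 0.76, SE 0.16, adjusted p = 0.0087). Neither list member was called over the lower set (limma adjusted p = 0.088 and 0.064). Chalcone synthase (LotjaGi2g1v0446700, chromosome 2, 94134378 to 94136440), the entry enzyme of flavonoid synthesis, did not separate in line 2, with 21.9, 26.2 and 25.1 FPKM in control libraries 1 to 3 and 31.8, 23.4 and 27.8 FPKM in salt libraries 1 to 3 (limma log2 change 0.17, SE 0.22, adjusted p = 0.68). In WT it went from 72.4, 68.4 and 118 to 4.94, 3.06 and 2.56 FPKM, and the effects differed (log2 difference 4.603, SE 0.31, limma adjusted p = 2.21e-07). Over the isoflavonoid list, 17 of 26 genes had a higher effect in line 2 than in WT and none a lower one. The shares over all genes tested were 5.87% and 2.74%.

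Sugar genes had calls in both directions, 6 rises and 3 falls among 66, 13.6% beside 8.66% of all genes tested. Bidirectional sugar transporter SWEET2 (LotjaGi3g1v0039100, chromosome 3, 4195234 to 4196973), a vacuolar sugar carrier in Arabidopsis, stood at 32.5, 33.8 and 30.5 FPKM in control libraries 1 to 3 and 55.9, 47.6 and 50.3 FPKM in salt libraries 1 to 3. Its salt values were all higher (limma log2 change 0.66, SE 0.11, adjusted p = 0.0021), with rises of 0.45 in line 1 and 0.44 in WT. SWEET1 (LotjaGi1g1v0168400, chosen after its values were seen) went from 5.23, 5.696 and 5.42 to 10.9, 13.3 and 12.9 FPKM (limma log2 change 1.11, SE 0.22, adjusted p = 0.0068), and Sugar transporter ERD6-like 5 (LotjaGi1g1v0776000) fell from 10.4, 11.9 and 11.1 to 5.21, 6.74 and 7.33 FPKM (limma log2 change -0.76, SE 0.12, adjusted p = 0.0015). Both of these calls were lost over the lower set (limma adjusted p = 0.067 and 0.089).

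Other strong changes were in genes of varied roles. Of 95 cytochrome P450 genes, oxygenases of many pathways, 5 rose and 5 fell as deposited, and 4 and 12 by voom. The share called as deposited, 10.5%, was near the 8.66% of all genes tested. Cytochrome P450 82A3 (LotjaGi4g1v0060700, chromosome 4, 7322328 to 7325073) had the joint highest rise with Snakin-1, at 1.12, 1.04 and 1.27 FPKM in control libraries 1 to 3 and 6.52, 4.08 and 5.09 FPKM in salt libraries 1 to 3. The groups were separate (limma log2 change 1.78, SE 0.25, adjusted p = 7.23e-04), and WT fell (limma log2 change -1.26, SE 0.25, adjusted p = 0.0015). The adjacent copy (LotjaGi4g1v0060600, chromosome 4, 7286589 to 7292123) was far more abundant and also rose, from 221, 208 and 212 to 383, 375 and 393 FPKM (limma log2 change 0.84, SE 0.10, adjusted p = 2.41e-04), with a rise of 1.15 in WT; reads shared between such close copies can be split by the counting. WAT1-related protein At2g37460 (LotjaGi5g1v0069600), of a family of vacuolar and other transporters, went from 1.65, 1.104 and 1.03 to 4.17, 3.6001 and 7.304 FPKM (limma log2 change 1.61, SE 0.23, adjusted p = 7.63e-04).

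Among the falls, ADP-ribosylation factor-like protein 2 (an assembled transcript on chromosome 1, 125079783 to 125083836) stood at 43.7, 41.1 and 48.9 FPKM in control libraries 1 to 3 and 9.06, 10.9 and 7.31 FPKM in salt libraries 1 to 3 (limma log2 change -2.24, SE 0.35, adjusted p = 0.0013). Protein PSK SIMULATOR 2 (LotjaGi5g1v0005300, chromosome 5, 1182436 to 1189272), involved in growth signalling by phytosulfokine peptides in Arabidopsis, stood at 12.4, 12.3 and 12.6 FPKM in control libraries 1 to 3 and 2.96, 3.05 and 2.87 FPKM in salt libraries 1 to 3, with almost no spread within groups (limma log2 change -1.90, SE 0.18, adjusted p = 2.51e-05). ACD11 homolog protein (LotjaGi5g1v0340850, chromosome 5, 65832650 to 65834823), a sphingolipid carrier tied to cell death control in Arabidopsis, went from 22.1, 19.3 and 18.3 to 4.51, 5.99 and 6.71 FPKM (limma log2 change -1.72, SE 0.29, adjusted p = 0.0021). All 3 calls held in all 21 alternatives. The WT changes of these genes were -1.78, -2.36 and -0.78, the last not past the test, and those of line 1 were -1.96, -1.29 and -1.79. Assembled transcripts, entries outside the gene models, gave 29 rises and 141 falls among 1579 tested. Over all genes tested, 4.24% rose and 4.42% fell.

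The 3 genotypes share no libraries, so their salt effects can be set side by side, although the fit gives them 1 estimate of spread. WT had 3323 calls (16.3%) and line 1 1760 (8.61%). At least 2-fold changes numbered 254 rises and 966 falls in WT and 141 and 285 in line 1, against 48 and 208 in line 2. Of the 866 rises in line 2, 271 also rose in WT, 31.3% of the line 2 rises and 20.9% of those in WT. Of the 904 falls, 282 fell in WT, 31.2% and 13.9%. Line 1 shared 360 rises with line 2 (41.6% of line 2, 42.1% of line 1) and 345 falls (38.2% of each). All 3 genotypes shared 220 rises and 203 falls, whereas 425 rises and 457 falls of line 2 passed in neither other genotype. Passing in 1 genotype alone does not show a difference: the effect in line 2 itself differed from that in line 1 for 63 genes (0.308%) and from that in WT for 1759 (8.61%), 1199 of them higher and 560 lower in line 2. Of those 1759 genes, 1292 had no call in line 2.

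**Figure D3:**
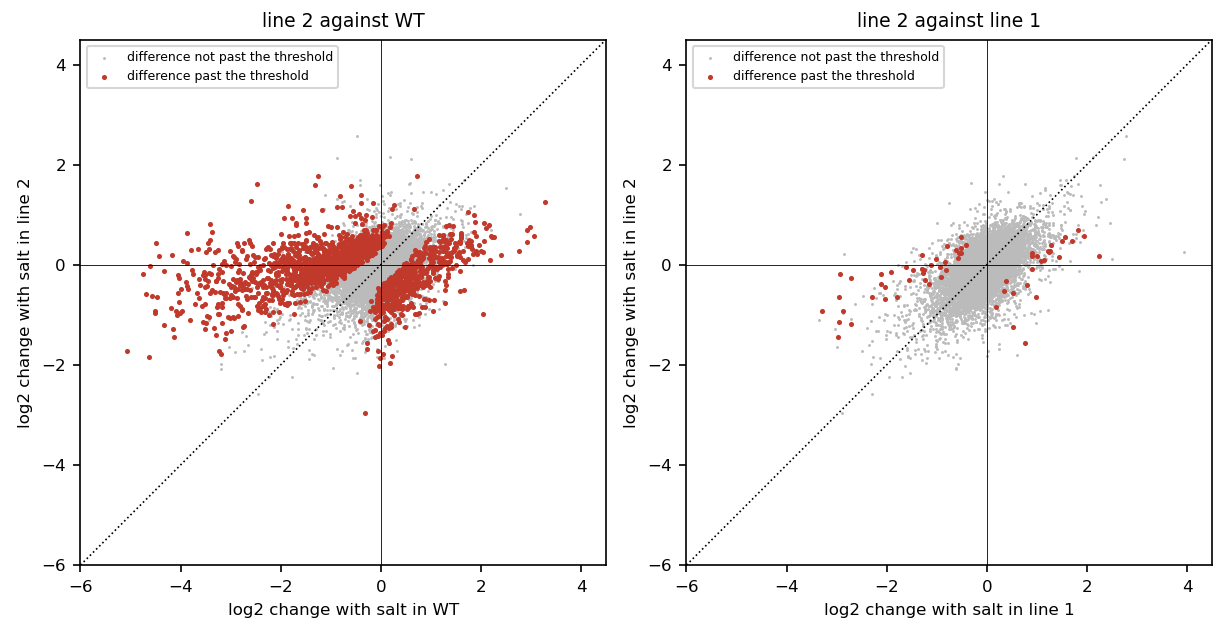
Log2 change with salt in line 2 (y axes) against that in WT and in line 1 (x axes), 1 point per tested gene on the log2(FPKM + 0.5) scale, with the dotted line where both are equal. Red points are genes whose effects differ past the threshold, 1759 against WT, of which 1292 have no call in line 2, and 63 against line 1.

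In 57 genes the line 2 and WT calls had opposite signs, 33 up in line 2 and down in WT and 24 the reverse. Gibberellin-regulated protein 1, Cytochrome P450 82A3 (LotjaGi4g1v0060700) and Proline dehydrogenase 1 are among them. Others, chosen after their values were seen, are EP1-like glycoprotein 3 (LotjaGi3g1v0156600), with 39.9, 50.8 and 39.4 FPKM in line 2 controls and 84.99, 67.5 and 72.1 FPKM with salt against 19.9, 21.9 and 28.5 and 13.04, 8.22 and 12.3 FPKM in WT, and Peroxidase 52 (LotjaGi3g1v0239800), with changes of 0.83 in line 2 and -1.49 in WT (log2 difference 2.32, SE 0.27, limma adjusted p = 3.14e-05). Transcription factor MYB48 (LotjaGi2g1v0369100) fell by 0.50 in line 2 and rose by 1.29 in WT (log2 difference -1.79, SE 0.17, limma adjusted p = 3.67e-06). The line 2 calls of these 2 genes were lost without control 3, and also without salt 3 for Peroxidase 52 and without salt 2 for MYB48, at up to 0.058 and 0.12. Opposite calls between line 2 and line 1 were rarer: 2 genes rose in line 2 and fell in line 1, and 3 fell in line 2 and rose in line 1.

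The 63 genes whose effect differed between lines 2 and 1 were then described by direction. Of the 38 with the higher effect in line 2, all 38 fell in line 1 (median log2 change -1.30), whereas line 2 had 2 rises and 8 falls (median -0.15). Of the 25 with the lower effect, 22 rose in line 1 (median 1.08) and line 2 had 5 rises and 6 falls (median 0.17). These values chose the genes and are given as a description. The WT salt effect is no term of that difference, although WT libraries entered the filter on low values and the shared spread; with only the 4 groups compared in the fit, 26 genes were called, 25 of them among the 63. In WT 32 of the 38 fell and none rose (median -1.79), and 23 of the 25 rose and none fell (median 1.36). Over all genes tested, 9.91% fell and 6.35% rose in WT. The median size of the change over the 63 genes was 0.30 in line 2, 1.25 in line 1 and 1.53 in WT. The count depended on single libraries: it ranged from 15 without line 2 control 2 to 110 without line 1 salt 3, and was 28, 36 and 19 without line 2 control 3, salt 1 and salt 3, and 27 without control 1. Without line 1 control 2, control 3, salt 1 and salt 2 it was 17, 21, 28 and 30. Over the lower set it was 0, with 1613 genes at an unadjusted limma p under 0.05, but that set holds only 1 control and 1 salt library of line 1, too few for its count to inform.

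**Figure D4:**
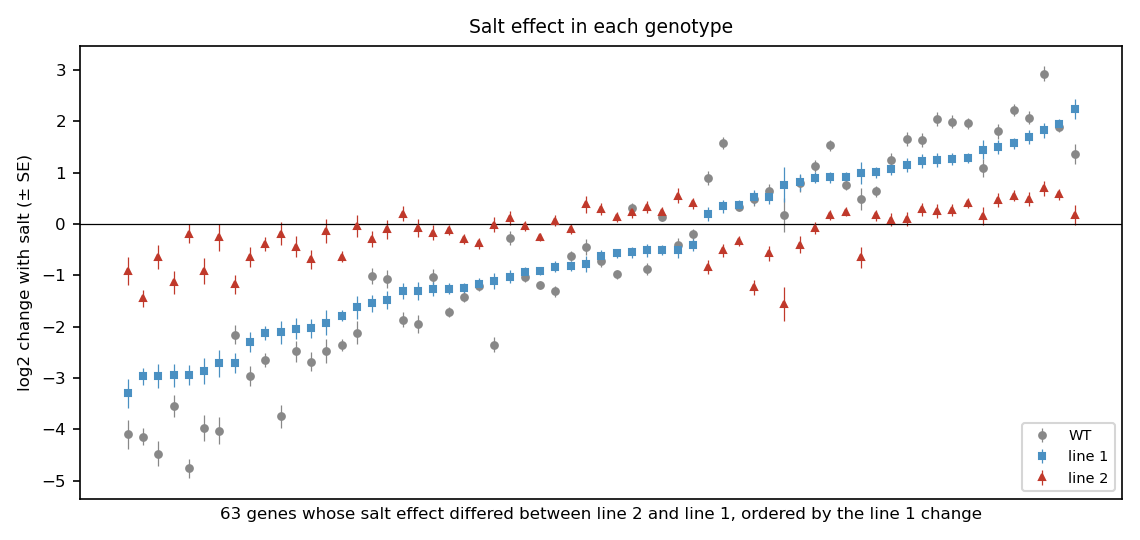
Log2 changes with salt of the 63 genes whose effect differed between line 2 and line 1, for WT, line 1 and line 2, 1 point per gene with its SE, ordered along the x axis by the line 1 change. The median size is 0.30 in line 2, 1.25 in line 1 and 1.53 in WT; the line 1 and line 2 values chose the genes.

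Of these 63 genes, 5 are on the clock and photoperiod list. The circadian clock is a loop of transcription factors that sets daily rhythms of gene expression. REVEILLE 6 (LotjaGi5g1v0296400, chromosome 5, 61338162 to 61342483), a MYB-related clock factor, stood in line 2 at 20.7, 20.2 and 19.7 FPKM in control libraries 1 to 3 and 12.2, 10.9 and 15.6 FPKM in salt libraries 1 to 3. These groups were separate, but the change did not pass the test (limma log2 change -0.64, SE 0.24, adjusted p = 0.1). In WT it went from 50.8, 37.5 and 44.9 to 1.38, 2.51 and 0.931 FPKM and in line 1 from 30.2, 24.3 and 25.1 to 2.21, 2.66 and 4.39 FPKM, falls of 4.47 and 2.95 on the log2 scale. The effects differed against both (log2 difference 2.31, SE 0.34, limma adjusted p = 0.0076 against line 1, 2.72e-06 against WT). APRR1 (LotjaGi4g1v0251000, chosen after its values were seen), also known as TOC1 in Arabidopsis and a core repressor of the clock, read 32.96, 32.7 and 33.9 FPKM in line 2 controls and 30.6, 33.6 and 34.5 FPKM with salt (limma log2 change -0.01, SE 0.15, adjusted p = 0.97), with -2.35 in WT and -1.11 in line 1.

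Of 9 clock genes called in line 2, 6 had larger changes of the same sign in both WT and line 1; the difference passed the test against WT for 6 of them and against line 1 for 3. The other 3, chosen after their values were seen, did not follow this pattern. CONSTANS-LIKE 5 (LotjaGi4g1v0296600) changed by 0.44 in line 2 and -0.0019 in WT, XAP5 CIRCADIAN TIMEKEEPER (LotjaGi1g1v0041000) by -0.84 and -0.14, and CONSTANS-LIKE 4 (LotjaGi1g1v0209200_LC) by -0.62 and -0.50, with line 1 at -0.01, -0.38 and -0.48; none of these differences between genotypes passed the test. LNK3 (LotjaGi3g1v0315400, chromosome 3, 66781238 to 66785157), of a family of clock co-activators, went from 8.42, 7.097 and 5.99 to 13.8, 9.84 and 12.2 FPKM (limma log2 change 0.70, SE 0.15, adjusted p = 0.0089), against 1.82 in line 1 and 2.93 in WT (log2 difference -2.23, SE 0.21, limma adjusted p = 3.67e-06). Its line 2 call was lost without control 3, at up to 0.072. CONSTANS-LIKE 2 (LotjaGi1g1v0523200) went from 13.2, 12.7 and 13.9 to 18.7, 20.6 and 19.8 FPKM (limma log2 change 0.55, SE 0.11, adjusted p = 0.0063), against 1.57 and 2.22. JMJ30 (LotjaGi3g1v0496400, chosen after its values were seen), a histone demethylase that acts in the clock in Arabidopsis, fell from 7.75, 8.89 and 11.4 to 3.49, 2.71 and 3.03 FPKM (limma log2 change -1.45, SE 0.16, adjusted p = 1.44e-04), against -2.97 in line 1 and -4.14 in WT. Its groups in line 2 did not overlap, and the difference from each of the others passed the test (log2 difference 1.52, SE 0.23, limma adjusted p = 0.0099 against line 1). Over the 45 tested clock genes, 5 rose and 4 fell in line 2 (2 and 5 by voom), 20% beside 8.66% of all genes tested. There were 18 calls in WT and 16 in line 1, beside 16.3% and 8.61% of all genes tested there. Calls of at least 2-fold numbered 1 in line 2, 11 in WT and 10 in line 1. The median size was 0.25, 0.35 and 0.29 in line 2, WT and line 1, beside 0.20, 0.19 and 0.17 over all genes tested. Sampling time in the light was the same by the labels, and the order of harvest within it is not given there.

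**Figure D5:**
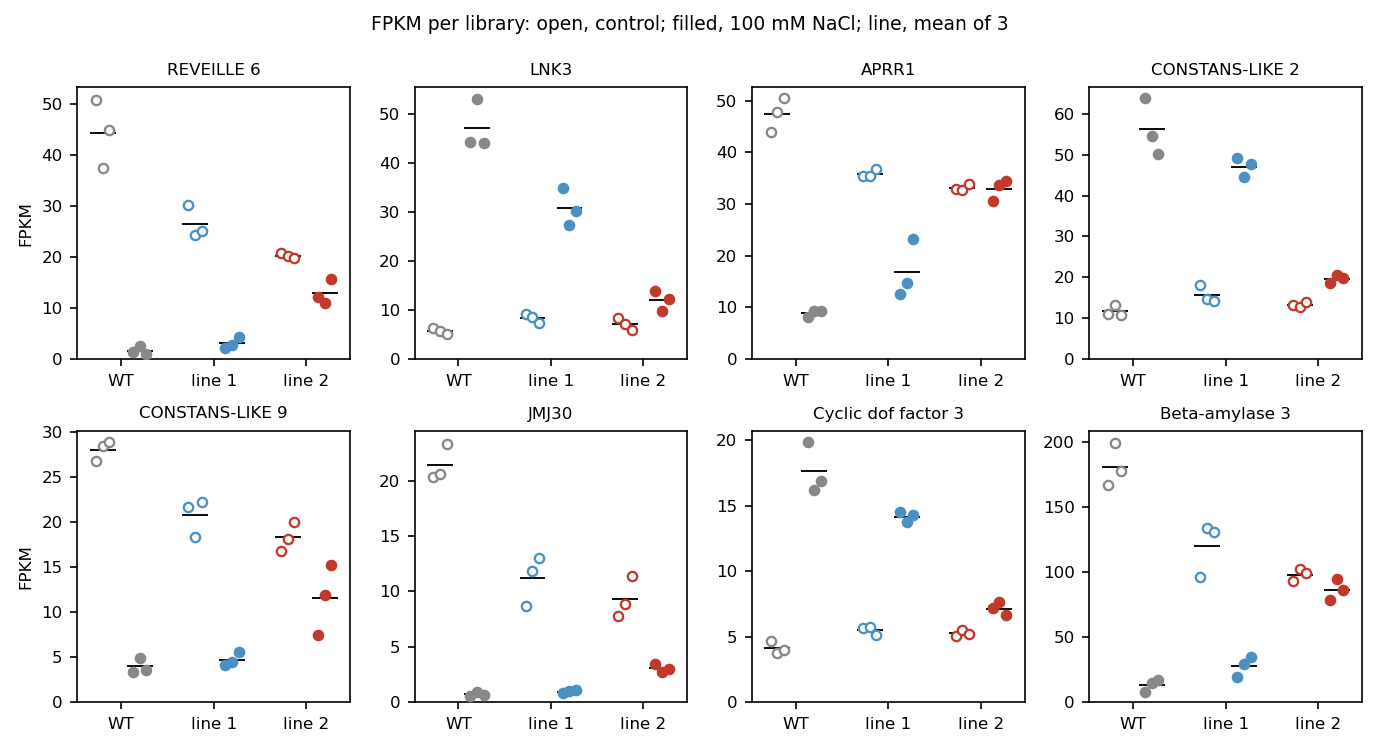
FPKM (y axes, linear, from 0) of 8 clock-related and starch genes in each of the 18 libraries of WT, line 1 and line 2. Open points are control and filled points salt libraries, and lines are means of 3 libraries. REVEILLE 6 is lowest in salted WT, while salted line 2 stands at 10.9 to 15.6 FPKM.

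Other members of the 63 genes act in metabolism and regulation. Beta-amylase 3 (LotjaGi2g1v0417900), which degrades leaf starch, read 93.2, 102 and 99.4 FPKM in line 2 controls and 78.6, 94.6 and 86.1 FPKM with salt, and the groups overlapped (limma log2 change -0.19, SE 0.23, adjusted p = 0.65); its changes were -2.11 in line 1 and -3.75 in WT. Thiamine thiazole synthase 2 (LotjaGi5g1v0317600), of thiamine synthesis, read 1594, 1431 and 1704 FPKM in controls and 1205, 1327 and 1314 FPKM with salt (limma log2 change -0.30, SE 0.10, adjusted p = 0.079), against -1.24 and -1.41. Both were chosen after their values were seen. The transcription factors DOF5.4 (LotjaGi1g1v0209300) and CHLOROPLAST IMPORT APPARATUS 2 (LotjaGi1g1v0115200), which promotes chloroplast protein import in Arabidopsis, changed in line 2 by -0.26 and -0.92, neither past the test, but fell by 2.72 and 3.30 in line 1. Cold-regulated protein 27 (LotjaGi5g1v0027900), a clock-linked repressor in Arabidopsis, fell in all 3 genotypes, by 0.92 in line 2 (limma log2 change -0.92, SE 0.26, adjusted p = 0.038), 2.87 in line 1 and 3.97 in WT. The line 2 call for it was lost with any 1 library of line 2 left out, at up to 0.14.

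Members with the lower effect in line 2 include a hormone receptor and a transporter. The Abscisic acid receptor PYL4 (LotjaGi1g1v0074000, chromosome 1, 10647894 to 10649958) read 2.504, 2.15 and 1.6004 FPKM in line 2 controls and 1.88, 2.22 and 3.202 FPKM with salt, overlapping groups (limma log2 change 0.17, SE 0.19, adjusted p = 0.63), whereas it rose by 2.24 in line 1 and 1.36 in WT (log2 difference -2.07, SE 0.27, limma adjusted p = 0.0033 against line 1). ZINC INDUCED FACILITATOR-LIKE 1 (LotjaGi3g1v0101900), a potassium and auxin-linked transporter in Arabidopsis, rose from 3.16, 3.66 and 2.83 to 5.402, 4.74 and 4.92 FPKM (limma log2 change 0.57, SE 0.11, adjusted p = 0.0058), against 1.94 in line 1 and 1.90 in WT. Stem-specific protein TSJT1 (LotjaGi6g1v0334000) went from 68.9, 104 and 94.003 to 53.2, 54.1 and 59.9 FPKM in line 2, values that did not overlap but missed the threshold (limma log2 change -0.65, SE 0.21, adjusted p = 0.063), and rose by 0.99 in line 1.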

How the data were processed

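RNA-seq was made from shoots of 18 samples, 3 for each of WT, line 1 and line 2 with and without NaCl. Per the labels' protocols, RNA came from a CTAB extraction, poly(A) RNA was selected and strand-marked libraries were made with dUTP. The values are FPKM per gene as deposited by the authors in 1 table of all samples; per the submitters' processing notes, fastp, featureCounts 1.5.0-p3 and DESeq2 1.20.0 were used. Sources used here name no aligner or genome build; coordinates are those of the deposited table. None of its IDs matched the reference table of genes, and no sequence was at hand to print.

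Genes with at least 1 FPKM in at least 3 libraries (20433) were tested in limma 3.58.1 (R 4.3.3) on log2(FPKM + 0.5) with 6 group means over the 18 libraries, a trended eBayes step and 12 residual degrees of freedom. Two-sided p-values were adjusted by Benjamini-Hochberg over all genes tested, with a threshold of 0.05. Fold changes on this scale understate the change of genes of low level. FPKM multiplied by length gave whole reads for 100% of values within 0.05 of a read; depth was 42125949 to 101713201 reads over the 18 libraries and served for limma voom as an alternative. FPKM depend on the total of each library, so a few abundant genes can shift all others. Tables used pandas 2.3.3 and numpy 2.4.6 in Python 3.11.15, and figures matplotlib 3.10.9.

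On simulated data with 100 genes changed 2-fold and 100 changed 4-fold, the fit for line 2 over 20433 genes recovered 42% and 98%, with 5 false calls. These figures hold for the simulated data and were not measured for the libraries themselves. No 2 libraries of a group agreed within sampling noise (lowest median chi-square per gene 2.10).

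Named genes had a protein description and at least 5 FPKM in the higher group: the 12 highest and 12 lowest called changes without overlap, the 2 called members of smallest adjusted p of each of 39 gene lists (or the most abundant member), the 6 highest and 6 lowest differences from WT and the 4 highest and 4 lowest from line 1; genes outside this rule are marked as chosen after their values were seen. The comparison and the lists were chosen with earlier results of these data known. The alternatives changed the pseudocount, the filter, the scaling, the samples in the fit, library terms, weights, or left out 1 library at a time. Lists are described by counts, without a set test.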

Additional observations from a re-analysis of the deposited data

Results flagged for a closer look

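The salt effect in line 2 differed from that in WT for 1759 genes and from that in line 1 for 63, by the limma test of the difference itself. Against WT, the highest differences were ERF098 (LotjaGi5g1v0180400), an ethylene-responsive factor, at 4.93 (SE 0.36, limma adjusted p = 4.53e-07), and genes of flavonoid and isoflavonoid synthesis. These were 2 chalcone synthases at 4.603 (SE 0.31, limma adjusted p = 2.21e-07) for LotjaGi2g1v0446700 and 4.59 (SE 0.44, limma adjusted p = 5.09e-06) for LotjaGi2g1v0450100, Phenylalanine ammonia-lyase 1 (LotjaGi3g1v0071500) at 4.51 (SE 0.63, limma adjusted p = 1.80e-04), 2-hydroxyisoflavanone synthase (LotjaGi4g1v0063900) at 4.37 (SE 0.40, limma adjusted p = 3.55e-06) and 6'-deoxychalcone synthase (LotjaGi4g1v0144700) at 4.23 (SE 0.43, limma adjusted p = 8.18e-06). Their own changes in line 2 were 0.43, 0.17, -0.02, 0.63, 0.20 and 0.81, in that order, and in WT -4.50, -4.43, -4.61, -3.88, -4.17 and -3.42. The second chalcone synthase overlaps another entry of the table.

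The lowest differences from WT were the auxin-induced ARG7 (LotjaGi3g1v0516600) at -3.02 (SE 0.81, limma adjusted p = 0.027), Ferritin-3 at -2.64 (SE 0.28, limma adjusted p = 1.43e-05), ammonium transporter 1-2 (LotjaGi5g1v0205600) at -2.47 (SE 0.49, limma adjusted p = 0.0036), CYP71D10 (LotjaGi1g1v0018100_LC) at -2.24 (SE 0.42, limma adjusted p = 0.0024), LNK3 at -2.23 (SE 0.21, limma adjusted p = 3.67e-06) and carboxylesterase 1 (LotjaGi2g1v0152500) at -2.21 (SE 0.32, limma adjusted p = 2.56e-04). The changes in line 2 were -0.98, -2.96, 0.45, 0.75, 0.70 and 0.20, and in WT 2.04, -0.32, 2.93, 2.99, 2.93 and 2.41. CYP71D10 overlaps another entry.

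Against line 1, the highest differences were DOF5.4 at 2.45 (SE 0.37, limma adjusted p = 0.0099), CHLOROPLAST IMPORT APPARATUS 2 at 2.38 (SE 0.40, limma adjusted p = 0.017), REVEILLE 6 at 2.31 (SE 0.34, limma adjusted p = 0.0076) and Cold-regulated protein 27 at 1.95 (SE 0.37, limma adjusted p = 0.031). The lowest were PYL4 at -2.07 (SE 0.27, limma adjusted p = 0.0033), Proline dehydrogenase 1 at -1.76 (SE 0.20, limma adjusted p = 0.0011), TSJT1 at -1.64 (SE 0.30, limma adjusted p = 0.027) and ZINC INDUCED FACILITATOR-LIKE 1 at -1.37 (SE 0.16, limma adjusted p = 0.0011).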

How the results depend on the processing

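None of the 94 named genes called in line 2 changed sign under any of the 21 alternatives of the line 2 effect. Of these 94 genes, 35 kept the call in all 21 and 63 kept it with each library left out in turn. Signs of named genes without a call in line 2 were not checked. The main count of 1770 was 3021 with the library set as a term, 3076 with the split of table columns as a term (an alternative chosen after seeing the data), 291 without the upper set, 2846 with array weights, and 696 to 1398 with 1 library left out. The difference from WT, 1759 genes, gave 2827, 627 and 2859 with the set as a term, without the upper set and with array weights, 2552 with the split of columns as a term, and 1257 to 1741 with 1 library left out. The difference from line 1, 63 genes, gave 31 with no filter, 34 with scaling to the gene total, 26 with only the groups compared, 139 and 135 with the set and the split of columns as a term, 0 without the upper set (which leaves 1 control and 1 salt library of line 1, too few for the count to inform), 708 with array weights and 15 to 110 with 1 library left out. Fewer libraries account by construction for part of the smaller counts without the upper set. The library set was itself defined from the deviations within groups in these data. As a term it takes up part of those deviations by construction, so its larger counts are no independent support for the calls. For the other counts the cause was not tested.

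With the replicate number as a block, the counts were 1662, 1700 and 62. The numbers gave no pairing: same-numbered control and salt libraries of line 2 deviated together with r of 0.09, -0.13 and -0.03. The fit assumes equal spread in all groups, and a lone library left after an omission is assumed to vary like the others. The recovery of 42% of 2-fold changes belongs to simulated data, which held fewer changed genes than were called here. Whether the simulated spread matched that of these libraries was not tested, so the 42% gives no rate of missed changes for them. A gene without a call may still have changed.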

Other observations

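Among surface and senescence genes the shares of calls were near that of all genes, 8.66%. Of 41 cuticle and suberin genes, 3 rose and 1 fell in line 2 (9.76%); 3-ketoacyl-CoA synthase 6 (LotjaGi5g1v0340300), which lengthens fatty acids for wax, went from 158, 157 and 130.2 to 201, 227 and 219 FPKM (limma log2 change 0.54, SE 0.13, adjusted p = 0.015), with the call lost without control 3, at up to 0.13. Of 17 chlorophyll breakdown genes 1 fell (5.88%), Pheophytinase (LotjaGi3g1v0552400, chosen after its values were seen; limma log2 change -0.85, SE 0.15, adjusted p = 0.0029), which removes the phytol tail of chlorophyll. Of 103 defence genes 1 rose and 4 fell, and of 165 NLR-like resistance genes 1 rose and 4 fell, beside 4.24% rises and 4.42% falls of all genes tested. With the library set as a term the defence count turned to 10 up and 4 down, and by voom the NLR-like count was 0 up and 11 down. The WT counts were 7 up and 28 down, and 1 up and 35 down, beside 6.35% and 9.91% of all genes tested there. MLO-like protein 6 (LotjaGi2g1v0102800) went from 12.5, 11.2 and 13.4 to 5.66, 5.91 and 6.74 FPKM in line 2 (limma log2 change -0.96, SE 0.20, adjusted p = 0.0078), with -4.00 in WT. Of 50 glutathione S-transferases 3 rose and none fell as deposited (6%), but 1 rose and 5 fell by voom. No nodule or seed marker was called among 10 and 4 tested (limma, adjusted p under 0.05).

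Of the rises named by the rule, the sieve element gene SEO-B (LotjaGi5g1v0185500) read 1.51, 7.04 and 2.43 FPKM without and 9.24, 9.59 and 12.04 FPKM with salt (limma log2 change 1.60, SE 0.43, adjusted p = 0.032), and lost its call with any library but control 2 left out, at up to 0.19. PHOSPHATE-INDUCED 1 (LotjaGi1g1v0239900) read 12.5, 13.8 and 15.99 and 17.9, 40.9 and 90.8 FPKM (limma log2 change 1.5001, SE 0.45, adjusted p = 0.048), with a wide spread among the salt libraries, and held its call in 7 of 21 alternatives.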
